A study of Mus musculus with 12 samples.

Results

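The genes described here are 48 mouse genes of the G1/S transition and of DNA replication, named by symbol: 14 for origin licensing and firing, 6 for the sliding clamp and its loader, 8 for the replicative polymerases and primase, 5 for single-strand binding and Okazaki fragment maturation, 5 for deoxynucleotide (dNTP) supply, 4 for chromatin behind the fork and 6 regulators of the G1/S transition. Each gene was read from the probe set annotated to its symbol. A gene with several was read from its brightest, by the mean of all 12 arrays. All 48 were found among the 19937 genes with a probe set of 1 symbol, and all 48 were among the 13180 genes bright enough to be tested. The cells were T cell acute lymphoblastic leukaemia (T-ALL) cells of 1 mouse clone, number 483, on a C57BL6 background. Treated cells received 100 µM 4EGI-1, an inhibitor of the contact between the cap-binding protein eIF4E and the scaffold eIF4G, for 2 h, and control cells received none. The sample labels call the control untreated, whereas the protocol names DMSO, the solvent. RNA of the polysomes, pooled from a sucrose gradient, and a reference RNA of the same cells were hybridised to separate single-colour arrays, which gave 4 groups of 3 arrays: polysomal RNA of 4EGI-1 cells and of control cells, and cytoplasmic RNA of 4EGI-1 cells and of control cells. The reference RNA is cytoplasmic by its label but total by its title, and it was extracted from whole cells with Trizol, so it can hold nuclear RNA. Below it is called cytoplasmic, as labelled.

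A chromosome is licensed for replication in G1, when the origin recognition complex (Orc proteins), Cdc6 and Cdt1 load the MCM helicase onto origins. Geminin (Gmnn) is an inhibitor of Cdt1. Cyclin E with Cdk2 and the E2F transcription factors drive entry into S phase, where Cdc45 joins the helicase, polymerase alpha with primase starts strands, and polymerases delta and epsilon extend them on the Pcna clamp loaded by replication factor C. Ribonucleotide reductase, thymidylate synthase and thymidine kinase supply the nucleotides, and Uhrf1, Dnmt1 and the Chaf1 subunits copy DNA methylation and chromatin onto the new strands. In leukaemia cells in culture these genes are commonly expressed at high levels, because the cells divide.

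Promoter sequences are shown first because E2F factors are textbook regulators of many of these genes. RefSeq promoters (build GRCm38.p6, 250 bases before to 50 bases after the start of a transcript) were at hand for 42 of the 48 genes, as 53 promoters. At least 1 of the E2F-type words TTTCCCGC, TTTGGCGC, TTTCGCGC and TTTGCCGC, on either strand and with overlaps allowed, stood in 17 of the 53 (32.1%), against 744 of 32851 promoters in the whole table (2.26%) and 607 of 21262 promoters of protein-coding genes (2.85%). The word CCAAT, on either strand, stood in 32 of the 53 (60.4%), against 37.4% of all promoters and 38.2% of promoters of protein-coding genes. Below are windows of 100 bases upstream of the start, placed to hold an E2F-type word, for 6 example genes. Counted from the start, they run from -130 to -31 (Mcm6), -185 to -86 (Mcm7), -158 to -59 (Cdc6, Pola1), -160 to -61 (Cdk2) and -100 to -1 (E2f3). Each is read 5′ to 3′ on the gene's strand, with the words in capitals. Mcm5, Orc1, Rfc3, Dnmt1 and Uhrf1 also had a word upstream of a start and are not shown. In Mcm6 2 of the 3 words overlap.
Mcm6, helicase subunit, chr1:128359736-128359835, minus strand: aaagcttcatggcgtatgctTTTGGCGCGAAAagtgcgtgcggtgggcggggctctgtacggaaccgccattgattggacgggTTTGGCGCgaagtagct
Mcm7, helicase subunit, chr5:138171969-138172068, minus strand: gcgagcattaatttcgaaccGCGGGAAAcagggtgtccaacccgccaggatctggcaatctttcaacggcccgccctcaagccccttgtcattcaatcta
Cdc6, helicase loader, chr11:98907993-98908092, plus strand: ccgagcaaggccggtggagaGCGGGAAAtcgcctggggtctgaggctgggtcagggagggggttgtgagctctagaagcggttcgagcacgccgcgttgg
Pola1, catalytic subunit of polymerase alpha, chrX:93632214-93632313, minus strand: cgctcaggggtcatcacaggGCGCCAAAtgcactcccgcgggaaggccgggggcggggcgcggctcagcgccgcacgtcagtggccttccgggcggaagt
Cdk2, cyclin E-dependent kinase, chr10:128705112-128705211, minus strand: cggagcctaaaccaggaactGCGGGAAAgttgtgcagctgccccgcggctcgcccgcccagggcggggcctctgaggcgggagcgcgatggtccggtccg
E2f3, transcription factor, chr13:29986064-29986163, minus strand: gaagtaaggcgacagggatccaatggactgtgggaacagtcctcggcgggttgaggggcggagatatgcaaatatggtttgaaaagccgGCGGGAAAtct

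Among these 6 genes Mcm7, Cdc6 and Pola1 rose in polysomal RNA of 4EGI-1 cells, Cdk2 and E2f3 fell and Mcm6 passed in neither direction. The 6 are examples, so their mix of outcomes shows nothing about the other genes. Counted by gene, with a word in any of its promoters, 17 of the 42 genes had an E2F-type word, against 704 of 27025 genes in the whole table. These were 8 of the 11 that rose, 3 of the 8 that fell and 6 of the 23 that passed in neither direction. The split by call was not counted over all genes tested, so whether it is unusual is not known. The 6 genes without a promoter entry include Mcm4 and Pole, which rose, and Ccne2, Gmnn and Rfc2, which fell. Genes with more promoters have more room for a word. In Dnmt1, Lig1, Mcm7 and Uhrf1, which rose, only some promoters held a word. The same was so in E2f3, which fell, and E2f2, which passed in neither direction. These are counts of matching letters, not of bound sites.

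The arrays were alike within groups. Pearson correlations between arrays of a group ran from 0.996 to 0.996 in polysomal RNA of 4EGI-1 cells, 0.996 to 0.997 in polysomal RNA of control cells, 0.987 to 0.995 in cytoplasmic RNA of 4EGI-1 cells and 0.985 to 0.991 in cytoplasmic RNA of control cells. The median SD of the 48 genes (log2) was 0.05 and 0.07 in polysomal RNA of 4EGI-1 and control cells, and 0.11 in each cytoplasmic group. Of the T lineage markers, 11 of 12 were measured and all 11 lay above the filter, with means over the 12 arrays between 6.61 (Cd5) and 12.2 (Rag1) on the log2 scale. B cell markers had means between 4.42 and 6.67, with 2 of 4 above the filter, myeloid markers between 5.28 and 7.47, with 3 of 5 above it, erythroid markers 6.32 and 6.74, both above it, stromal markers between 5.57 and 7.21, with 3 of 4 above it, and endothelial markers between 5.44 and 8.48, with 1 of 3 above it. Values are the deposited RMA values on the log2 scale, in which a difference of 1 is a doubling. They were scaled array by array, so a change common to all RNAs of a fraction is not measured, and in bulk RNA fewer cells in S phase and less RNA per cell cannot be told apart. Differences were tested with limma in 1 fit over all 12 arrays, with Benjamini-Hochberg adjustment over 13180 genes and a threshold of 0.05. The fit gave each gene 1 estimate of spread for all 4 groups. The median SD over all genes was 0.12 (4EGI-1) and 0.13 (control) in cytoplasmic RNA, against 0.08 and 0.07 in polysomal RNA. For many genes p-values can therefore be too small in cytoplasmic and too large in polysomal RNA. The design text calls each array a biological replicate but no source used here says how the cultures were kept apart, so p-values rest on array-to-array spread that may be partly technical.

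In polysomal RNA transcripts of 13 of the 48 genes rose after 4EGI-1, with the highest fold changes for the catalytic subunits of polymerases epsilon (Pole, 2.59-fold) and alpha (Pola1, 2.14-fold), the maintenance methylation pair Uhrf1 (1.91-fold) and Dnmt1 (1.89-fold) and the large subunit of ribonucleotide reductase, Rrm1 (1.75-fold). Transcripts of 11 genes fell, led by Rpa3, the smallest subunit of replication protein A (1.59-fold lower), the Cdt1 inhibitor Gmnn (1.44-fold lower) and cyclin E1, Ccne1 (1.44-fold lower). The other 24 did not pass. Of all genes tested 13% rose and 12.1% fell, and 25.2% in either direction, against 24 of the 48. The median change was -0.00 for the 48 genes and -0.03 for all genes tested. Of the 24 called, 10 changed by at least 1.5-fold, 9 of them upward. Over all 13180 genes tested, 883 were called with a change of at least 1.5-fold in either direction. The 13 that rose were all called in each leave-one-out fit except Cdc6, whereas the count that fell was 5 without polysomal control array 1 or without polysomal 4EGI-1 array 2 or 3, 6 without polysomal 4EGI-1 array 1 and 7 without polysomal control array 3.

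**Figure D1:**
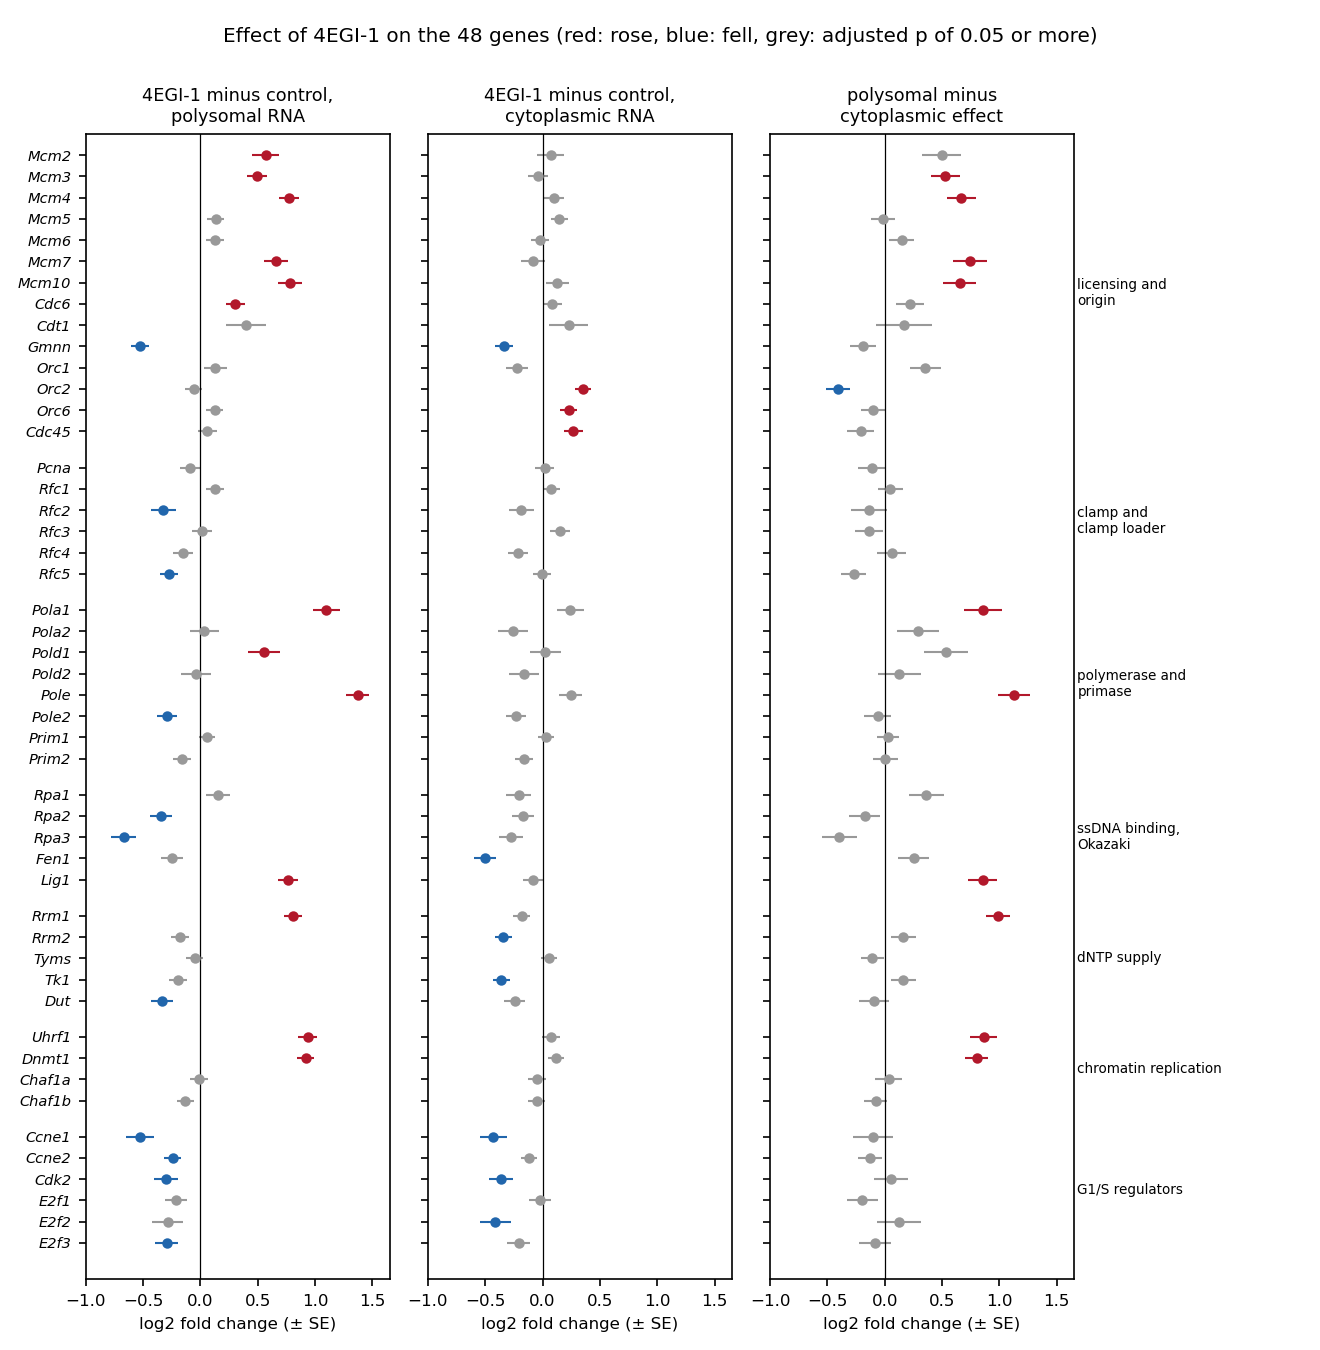
Log2 fold change (x axis, ± SE) of each of the 48 genes, grouped by role, for 4EGI-1 minus control in polysomal RNA (left), in cytoplasmic RNA (middle) and for the polysomal minus the cytoplasmic effect (right). Red points rose, blue points fell and grey points did not pass; the red points of the left panel reach 1.37 for Pole, while Fen1, at -0.50, lies farthest from 0 in the middle panel.

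In cytoplasmic RNA the changes were smaller. 3 of the 48 genes rose (Orc2, Cdc45, Orc6) and 7 fell (Fen1, Ccne1, E2f2, Tk1, Cdk2, Rrm2, Gmnn), against 10.1% of all genes tested that rose and 7.79% that fell (17.8% in either direction). None of these 10 changed by 1.5-fold or more, whereas 594 of the 13180 genes tested were called with a change of that size. The median was -0.05 for the 48 genes and -0.03 for all genes tested. The count that rose was 1 without cytoplasmic control array 1 or 3, without cytoplasmic 4EGI-1 array 1, or without polysomal control array 2 or any polysomal 4EGI-1 array. The count that fell was 4 without cytoplasmic 4EGI-1 array 1 or 2. The 13 genes that rose in polysomal RNA passed in neither direction in cytoplasmic RNA. Gmnn, Ccne1 and Cdk2 fell in both fractions, and none of the 48 rose in both. Such joint patterns were not counted over all genes tested, so whether they are unusual is not known.

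The polysomal effect exceeded the cytoplasmic effect for 10 genes and lay below it for 1, Orc2. Of all genes tested 2.31% passed in the first direction and 0.607% in the second (2.92% in either). The 10 were Pole, Rrm1, Uhrf1, Pola1, Lig1, Dnmt1, Mcm7, Mcm4, Mcm10 and Mcm3, and 9 of them differed by at least 1.5-fold between fractions. Among the 13180 genes tested, 245 were called with a difference of that size in either direction. The median of this difference was 0.06 for the 48 genes and -0.01 for all genes tested. The call on Orc2 (adjusted p = 0.0467, limma) was lost without any 1 of 10 of the arrays, all but cytoplasmic control array 2 and cytoplasmic 4EGI-1 array 3, with adjusted p from 0.0687 to 0.143, and with centring on array medians (0.0868) or without a filter on low values (0.103). Of the 10 higher ones, Mcm10 lost its call without any 1 of 6 arrays and Mcm3 without any 1 of 9, as given with these genes below.

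In origin licensing, 4 subunits of the MCM2 to MCM7 helicase, the replication initiation factor Mcm10 and the helicase loader Cdc6 rose in polysomal RNA, 6 of 14 genes of this group, while 1 fell (Gmnn), against 13% and 12.1% of all genes tested. Mcm4, a helicase subunit, had log2 values of 11.28, 11.22 and 11.28 on the polysomal arrays of 4EGI-1 cells, against 10.47, 10.42 and 10.59 in control cells. On the cytoplasmic arrays Mcm4 was at 11.32, 11.34 and 11.56 in 4EGI-1 cells and at 11.42, 11.20 and 11.30 in control cells. The polysomal control arrays were low, and the cytoplasmic control arrays overlapped both groups of treated arrays. The rise in polysomal RNA was 0.77 ± 0.09 (log2, SE; 1.70-fold, limma adjusted p = 1.36e-05), the cytoplasmic difference was 0.10 ± 0.09 (adjusted p = 0.484), and the polysomal effect exceeded it by 0.67 ± 0.12 (adjusted p = 0.00686).

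Mcm7, another helicase subunit, had 10.67, 10.62 and 10.88 in polysomal RNA of 4EGI-1 cells, against 9.97, 10.07 and 10.15 in control cells. In cytoplasmic RNA it had 11.08, 10.79 and 11.13 in 4EGI-1 cells, against 11.18, 10.98 and 11.09 in control cells. Here the polysomal control arrays were again lowest, and the polysomal arrays of 4EGI-1 cells lay between them and the cytoplasmic ones, with 1 of them inside the cytoplasmic range. Polysomal Mcm7 rose by 0.66 ± 0.10 (1.58-fold, adjusted p = 0.000238), cytoplasmic Mcm7 differed by -0.08 ± 0.10 (adjusted p = 0.633), and the effects differed by 0.74 ± 0.15 (adjusted p = 0.0102, limma).

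Mcm10, which helps to start the helicase, had 10.16, 10.17 and 10.25 on the polysomal arrays of 4EGI-1 cells, against 9.30, 9.41 and 9.53 in control cells. Cytoplasmic values of Mcm10 were 10.19, 10.04 and 10.30 in 4EGI-1 cells and 9.99, 9.90 and 10.25 in control cells. Polysomal control values were below all others. Mcm10 rose by 0.78 ± 0.10 (1.72-fold, adjusted p = 4.38e-05) in polysomal RNA, beyond a cytoplasmic difference of 0.13 ± 0.10, by 0.65 ± 0.14 (adjusted p = 0.0209). That last call was lost without polysomal control array 1 (0.0742) or 2 (0.0622), polysomal 4EGI-1 array 1 (0.0531) or 3 (0.075), or cytoplasmic 4EGI-1 array 1 (0.0518) or 2 (0.0561), the values being limma adjusted p.

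Mcm3 had 10.99, 11.00 and 11.04 in polysomal RNA of 4EGI-1 cells, against 10.41, 10.55 and 10.59 in control cells. In cytoplasmic RNA the values were 11.01, 10.94 and 11.18 in 4EGI-1 cells and 11.14, 10.95 and 11.15 in control cells. The treated polysomal arrays thus lay inside the cytoplasmic range and the polysomal control arrays below it. Mcm3 rose by 0.49 ± 0.09 (1.41-fold, adjusted p = 0.000693) in polysomal RNA, against -0.04 ± 0.09 in cytoplasmic RNA, a difference of 0.53 ± 0.12 (adjusted p = 0.0306). Without any 1 of 9 arrays the difference no longer passed (adjusted p from 0.0533 to 0.0999); it did not pass with centring (0.0659) or without a filter (0.0691) either. The 3 arrays without which it did pass were polysomal control array 3, cytoplasmic control array 2 and cytoplasmic 4EGI-1 array 3.

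Mcm2 had 11.19, 11.09 and 11.18 in polysomal RNA of 4EGI-1 cells, against 10.52, 10.54 and 10.70 in control cells. Its cytoplasmic arrays read 11.12, 11.06 and 11.50 in 4EGI-1 cells and 11.39, 11.07 and 11.01 in control cells. Polysomal values were apart between treatments while cytoplasmic values overlapped. Mcm2 rose by 0.57 ± 0.12 (1.48-fold, adjusted p = 0.00252) in polysomal RNA, and the difference from the cytoplasmic effect, 0.50 ± 0.17, did not pass (limma adjusted p = 0.169), though it did without cytoplasmic 4EGI-1 array 3 (0.0201).

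The remaining helicase subunits, Mcm5 and Mcm6, did not pass in polysomal RNA. Their differences were 0.13 (95% interval -0.03 to 0.29) for Mcm5 and 0.13 (-0.04 to 0.29) for Mcm6, intervals that lie below those of Mcm4 (0.58 to 0.95) and Mcm7 (0.44 to 0.88). Whether subunits differ from each other was not tested. Cdc6 rose by 0.31 ± 0.09 in polysomal RNA (1.24-fold, limma adjusted p = 0.0152), a call lost without polysomal control array 2 (0.0832) or polysomal 4EGI-1 array 3 (0.0735).

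Cdt1, the second helicase loader, was read with a wider spread. Its polysomal values were 8.44, 8.32 and 8.54 in 4EGI-1 cells, against 8.11, 8.01 and 7.99 in control cells. Cytoplasmic Cdt1 was at 8.30, 8.29 and 9.01 in 4EGI-1 cells and 8.59, 7.98 and 8.35 in control cells. The polysomal groups did not overlap, but the cytoplasmic arrays, which share the estimate of spread, ran from 7.98 to 9.01. The polysomal difference of 0.40 ± 0.17 did not pass (limma adjusted p = 0.113). It passed without cytoplasmic 4EGI-1 array 3 (0.0215) and with the 6 polysomal arrays alone (0.00102).

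Gmnn, the inhibitor of Cdt1, moved the other way. It had 9.92, 9.84 and 9.75 in polysomal RNA of 4EGI-1 cells, against 10.40, 10.37 and 10.31 in control cells. In cytoplasmic RNA it had 9.30, 9.14 and 9.14 in 4EGI-1 cells, against 9.44, 9.53 and 9.63 in control cells. The 4 groups did not overlap at any point, with polysomal above cytoplasmic and control above 4EGI-1 within each fraction. Gmnn fell by 0.53 ± 0.08 in polysomal RNA (limma adjusted p = 0.000218) and by 0.34 ± 0.08 in cytoplasmic RNA (adjusted p = 0.009), and the difference of -0.19 ± 0.11 did not pass (adjusted p = 0.532). With the 6 cytoplasmic arrays alone the cytoplasmic fall did not pass (adjusted p = 0.0682).

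Orc2 and Orc6, subunits of the origin recognition complex, and Cdc45 rose in cytoplasmic RNA, 3 of the 14 genes, against 10.1% of all genes tested, and did not pass in polysomal RNA. Orc2 had 10.74, 10.66 and 10.64 in polysomal RNA of 4EGI-1 cells and 10.77, 10.70 and 10.74 in control cells, while in cytoplasmic RNA it had 10.68, 10.58 and 10.58 in 4EGI-1 cells, against 10.21, 10.34 and 10.22 in control cells. The cytoplasmic control arrays were the low group here. Orc2 differed by -0.06 ± 0.07 in polysomal RNA (limma adjusted p = 0.644) and rose by 0.35 ± 0.07 in cytoplasmic RNA (adjusted p = 0.00361), and the effect in polysomal minus that in cytoplasmic RNA was -0.41 ± 0.10. Cdc45, a part of the active helicase, and Orc6 had polysomal differences of 0.06 and 0.12 that did not pass, and in cytoplasmic RNA they rose by 0.27 ± 0.08 (adjusted p = 0.0365) and 0.23 ± 0.07 (adjusted p = 0.0427). The call on Orc6 was lost without any 1 of 11 arrays, all but cytoplasmic 4EGI-1 array 2 (adjusted p from 0.0565 to 0.129), with the 6 cytoplasmic arrays alone (0.19), with centring (0.123) and without a filter (0.0803). The call on Cdc45 was lost without any 1 of 7 arrays (0.0512 to 0.163): cytoplasmic control arrays 1 and 3, cytoplasmic 4EGI-1 array 1, polysomal control array 2 and each polysomal 4EGI-1 array. It was lost too with the 6 cytoplasmic arrays alone (0.153), with centring (0.0566) and without a filter (0.0686). Orc1 passed in neither fraction, at 0.13 ± 0.10 in polysomal and -0.22 ± 0.10 in cytoplasmic RNA, the second passing only without cytoplasmic 4EGI-1 array 3 (adjusted p = 0.041).

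**Figure D2:**
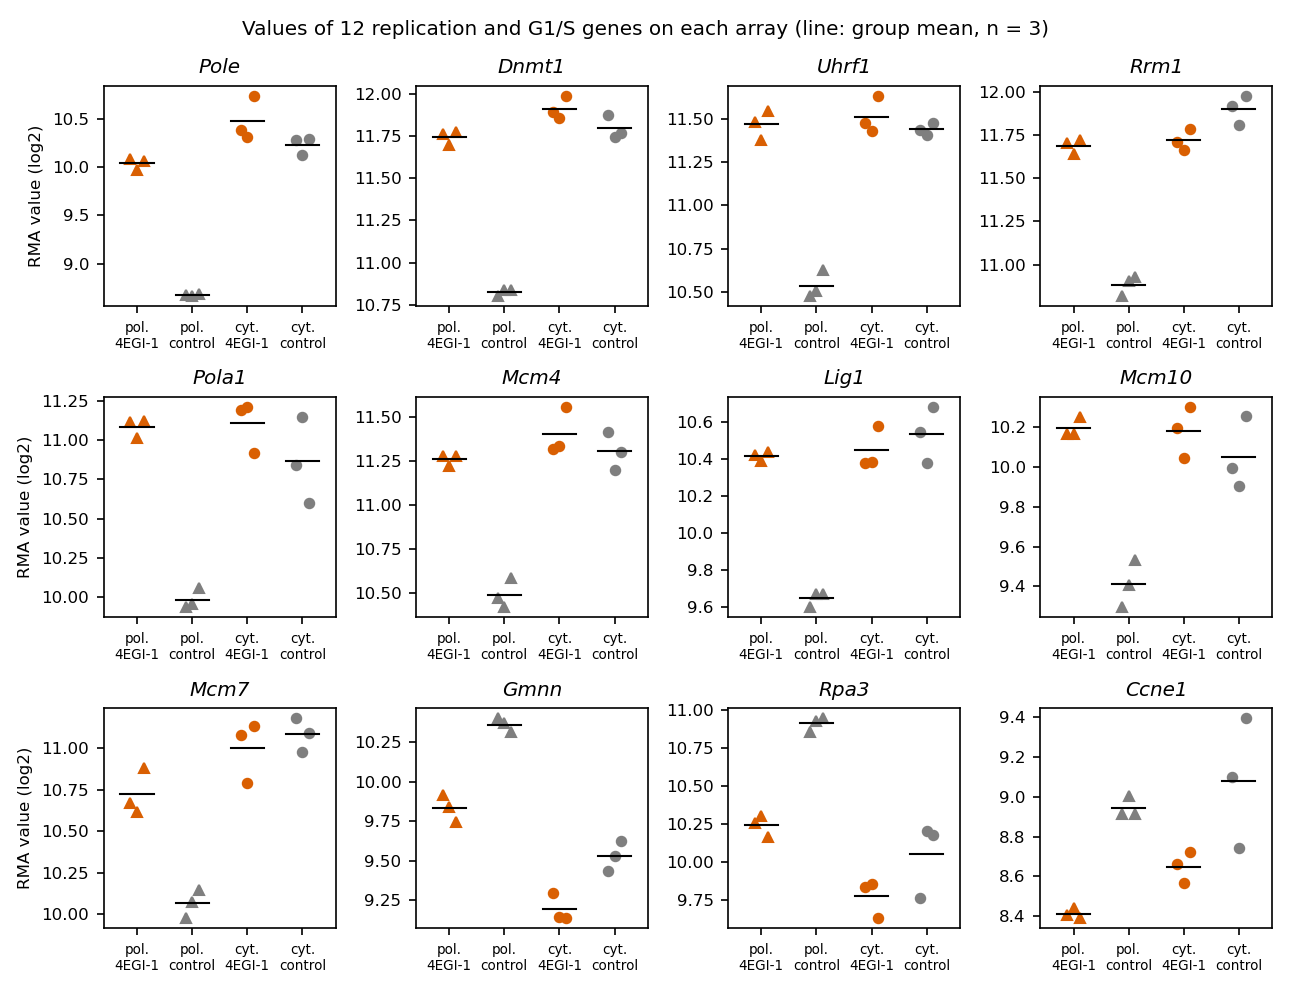
RMA value (log2, y axis) of 12 of the genes on each array, by fraction and treatment (triangles polysomal, circles cytoplasmic, orange 4EGI-1, grey control, line the mean of 3 arrays). The y axes do not start at 0 and differ between panels; in the panels from Pole to Mcm7 the 3 polysomal control arrays lie below the other 9, in those of Gmnn and Rpa3 they lie above them, and for Ccne1 the 3 polysomal 4EGI-1 arrays are lowest.

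In the clamp and its loader 2 of 6 genes fell in polysomal RNA, against 12.1% of all genes tested, and 0 passed in cytoplasmic RNA (limma; 1 at an unadjusted p under 0.05), against 17.8%. Pcna, the sliding clamp, had 13.61, 13.62 and 13.49 in polysomal RNA of 4EGI-1 cells, against 13.69, 13.65 and 13.66 in control cells. Cytoplasmic Pcna was at 13.71, 13.62 and 13.51 in 4EGI-1 cells and 13.44, 13.62 and 13.73 in control cells. All 12 values lay between 13.44 and 13.73, with the polysomal groups just apart and the cytoplasmic groups overlapping. The difference was -0.09 (95% interval -0.28 to 0.09) in polysomal and 0.02 (-0.17 to 0.20) in cytoplasmic RNA, and a second Pcna probe set gave -0.06 and -0.12. Near-identical gene copies cannot be told apart by such probes, so the source of the Pcna signal is uncertain.

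Of the replication factor C subunits, which load the clamp, Rfc2 and Rfc5 fell in polysomal RNA, by 0.32 ± 0.11 (limma adjusted p = 0.0398) and 0.28 ± 0.08 (adjusted p = 0.0145). The first call was lost without any polysomal array (adjusted p from 0.0537 to 0.15) and without cytoplasmic 4EGI-1 array 1 (0.0507), with centring (0.0803) and without a filter (0.0705), and the second without polysomal control array 3 (0.0606) or polysomal 4EGI-1 array 3 (0.0736). Rfc1, Rfc3 and Rfc4 had polysomal differences of 0.13, 0.01 and -0.15 and did not pass. In cytoplasmic RNA the differences of the 6 genes ran from -0.21 to 0.15. For 0 of them did the difference of effects between fractions pass (1 at an unadjusted p under 0.05).

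Among the 8 polymerase and primase genes Pole, Pola1 and Pold1 rose and Pole2 fell in polysomal RNA, against 13% and 12.1% of all genes tested. Pole, the catalytic subunit of the leading-strand polymerase, had 10.09, 9.97 and 10.07 in polysomal RNA of 4EGI-1 cells, against 8.67, 8.66 and 8.68 in control cells. In cytoplasmic RNA Pole had 10.39, 10.31 and 10.74 in 4EGI-1 cells and 10.29, 10.13 and 10.29 in control cells. The polysomal control arrays were far below the other 9, and the cytoplasmic groups lay side by side without overlap. Pole rose by 1.37 ± 0.10 in polysomal RNA (adjusted p = 3.16e-07), the highest value among the 48 genes. The cytoplasmic difference of 0.25 ± 0.10 did not pass (limma adjusted p = 0.108), except without cytoplasmic 4EGI-1 array 2 (0.05, just under the threshold before rounding), and the effects differed by 1.13 ± 0.14 (adjusted p = 0.000417).

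Pola1, the catalytic subunit of polymerase alpha, had 11.11, 11.02 and 11.12 in polysomal RNA of 4EGI-1 cells, against 9.94, 9.96 and 10.06 in control cells. Its cytoplasmic values were 11.19, 11.21 and 10.92 in 4EGI-1 cells and 10.84, 11.15 and 10.60 in control cells. Again the polysomal control arrays stood alone at the bottom. Pola1 rose by 1.10 ± 0.12 (adjusted p = 8.87e-06), by 0.86 ± 0.17 more than in cytoplasmic RNA (adjusted p = 0.0102, limma). The cytoplasmic difference, 0.24 ± 0.12 (adjusted p = 0.186), passed only without cytoplasmic control array 2 (0.0163).

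Pold1, the catalytic subunit of polymerase delta, rose by 0.55 ± 0.14 in polysomal RNA (1.47-fold, adjusted p = 0.00684), with a cytoplasmic difference of 0.02 ± 0.14. The difference between fractions, 0.53 ± 0.19, did not pass (limma adjusted p = 0.201) except without cytoplasmic 4EGI-1 array 3 (0.00971). Of the accessory subunits, polysomal Pole2 fell by 0.29 ± 0.08 (adjusted p = 0.0186), a call lost without polysomal control array 1 (0.0946), polysomal 4EGI-1 array 2 (0.0561) or polysomal 4EGI-1 array 3 (0.0875). Pola2 and Pold2 differed by 0.03 (95% interval -0.24 to 0.31) and -0.04 (-0.32 to 0.25) and did not pass. The primase subunits Prim1 and Prim2, which lay down the RNA primers, differed by 0.06 (-0.09 to 0.20) and -0.16 (-0.32 to 0.00). In cytoplasmic RNA 0 of the 8 passed (limma; 3 at an unadjusted p under 0.05), against 17.8% of all genes tested. Differences between partner subunits were not tested.

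Among the 5 single-strand binding and Okazaki fragment genes, Lig1, the ligase that seals the lagging strand, rose in polysomal RNA, and 2 subunits of replication protein A fell, against 13% and 12.1% of all genes tested. Lig1 had 10.42, 10.39 and 10.44 in polysomal RNA of 4EGI-1 cells, against 9.60, 9.67 and 9.67 in control cells. In cytoplasmic RNA it had 10.38, 10.38 and 10.58 in 4EGI-1 cells, against 10.54, 10.38 and 10.68 in control cells. Polysomal RNA of treated cells thus lay within the cytoplasmic range and that of control cells below it. Lig1 rose by 0.77 ± 0.09 (1.70-fold, adjusted p = 1.42e-05), with -0.09 ± 0.09 in cytoplasmic RNA (adjusted p = 0.55) and a difference of 0.85 ± 0.12 (limma adjusted p = 0.00113).

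Rpa3 had 10.26, 10.30 and 10.16 in polysomal RNA of 4EGI-1 cells, against 10.86, 10.93 and 10.95 in control cells. Its cytoplasmic values were 9.84, 9.86 and 9.63 in 4EGI-1 cells and 9.77, 10.20 and 10.18 in control cells. The polysomal control arrays were highest, above the other 9. Rpa3 fell by 0.67 ± 0.11 in polysomal RNA (limma adjusted p = 0.000331), and its second probe set gave -0.43. The cytoplasmic difference of -0.28 ± 0.11 did not pass (adjusted p = 0.095) except without cytoplasmic control array 1 (0.0081), and the difference of effects between fractions, -0.40 ± 0.15, did not pass (adjusted p = 0.247).

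Rpa2, the middle subunit of replication protein A, fell by 0.34 ± 0.10 in polysomal RNA (limma adjusted p = 0.0153), a call lost without polysomal control array 1 (0.0762), polysomal 4EGI-1 array 1 (0.0526) or polysomal 4EGI-1 array 2 (0.0596). The large subunit Rpa1 differed by 0.15 (95% interval -0.08 to 0.38) and did not pass. Fen1, the nuclease that trims Okazaki fragments, had 8.20, 8.28 and 8.22 in polysomal RNA of 4EGI-1 cells, against 8.59, 8.43 and 8.43 in control cells. In cytoplasmic RNA Fen1 had 7.90, 7.77 and 7.96 in 4EGI-1 cells, against 8.35, 8.21 and 8.57 in control cells. The treatments were apart in both fractions. The polysomal difference of -0.25 ± 0.09 did not pass (adjusted p = 0.0674), but it passed without cytoplasmic control array 2 (0.0407) or 3 (0.0286), with the 6 polysomal arrays alone (0.011), and with quantile normalization of the 12 arrays (0.0312) or within fractions (0.0263). In cytoplasmic RNA Fen1 fell by 0.50 ± 0.09 (adjusted p = 0.00176), the largest cytoplasmic fall of the 48.

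In dNTP supply, 1 of 5 genes rose and 1 fell in polysomal RNA, against 13% and 12.1% of all genes tested, and 2 fell in cytoplasmic RNA, against 7.79%. Rrm1, the large subunit of the reductase that makes deoxynucleotides, had 11.71, 11.64 and 11.72 in polysomal RNA of 4EGI-1 cells, against 10.82, 10.91 and 10.93 in control cells. In cytoplasmic RNA Rrm1 had 11.71, 11.66 and 11.78 in 4EGI-1 cells, against 11.92, 11.81 and 11.98 in control cells. The treated cells were above control cells in polysomal RNA and below them in cytoplasmic RNA, with no overlap in either. Rrm1 rose by 0.81 ± 0.08 in polysomal RNA (limma adjusted p = 2.5e-06), the cytoplasmic difference of -0.18 ± 0.08 did not pass (adjusted p = 0.111; 0.0464 with a trended robust prior), and the effects differed by 0.99 ± 0.11 (adjusted p = 0.000145), the smallest adjusted p among the 48 genes in that comparison.

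Rrm2, the small subunit of the reductase, differed by -0.18 ± 0.08 in polysomal RNA (limma adjusted p = 0.101), and its cytoplasmic RNA fell by 0.34 ± 0.08 (adjusted p = 0.00573). Tk1, thymidine kinase, differed by -0.20 ± 0.08 in polysomal RNA (adjusted p = 0.0738), and its cytoplasmic RNA fell by 0.36 ± 0.08 (adjusted p = 0.00427). A second Tk1 probe set gave -0.32 in polysomal and -0.26 in cytoplasmic RNA, so the order of the fractions turned between the probe sets (effects differing by 0.16 and -0.05). With the 6 polysomal arrays alone both polysomal differences passed (0.0338 for Rrm2, 0.0172 for Tk1), as did that of Rrm2 with a trended robust prior (0.039) and that of Tk1 with quantile normalization within fractions (0.047). With the 6 cytoplasmic arrays alone neither cytoplasmic fall did (0.0612 for Rrm2, 0.0565 for Tk1). Dut, which clears dUTP, fell by 0.34 ± 0.09 in polysomal RNA (adjusted p = 0.0148), but not without polysomal 4EGI-1 array 1 (0.0561). Its cytoplasmic difference of -0.24 ± 0.09 passed only without cytoplasmic control array 2 (0.043) or cytoplasmic 4EGI-1 array 3 (0.0186). Tyms, thymidylate synthase, differed by -0.05 (95% interval -0.20 to 0.10) in polysomal and 0.06 (-0.10 to 0.21) in cytoplasmic RNA.

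In the chromatin group Uhrf1 and Dnmt1, 2 of 4 genes, rose in polysomal RNA, against 13% of all genes tested. Dnmt1, the maintenance DNA methyltransferase, had 11.76, 11.70 and 11.77 in polysomal RNA of 4EGI-1 cells, against 10.80, 10.84 and 10.84 in control cells. Cytoplasmic Dnmt1 was at 11.89, 11.85 and 11.99 in 4EGI-1 cells and 11.87, 11.74 and 11.77 in control cells. Polysomal control arrays were the low group. Dnmt1 rose by 0.92 ± 0.07 in polysomal RNA (adjusted p = 6.29e-07), with 0.12 ± 0.07 in cytoplasmic RNA (adjusted p = 0.304), a difference of 0.80 ± 0.10 (limma adjusted p = 0.000451).

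Uhrf1, which brings Dnmt1 to newly copied DNA, had 11.48, 11.38 and 11.55 in polysomal RNA of 4EGI-1 cells, against 10.47, 10.51 and 10.63 in control cells. In cytoplasmic RNA it had 11.48, 11.43 and 11.63 in 4EGI-1 cells, against 11.44, 11.41 and 11.47 in control cells. The treated polysomal arrays overlapped both cytoplasmic groups, and the polysomal control arrays lay below. Uhrf1 rose by 0.93 ± 0.08 (adjusted p = 1.33e-06), by 0.86 ± 0.11 more than in cytoplasmic RNA (limma adjusted p = 0.000612). The histone chaperone subunits Chaf1a and Chaf1b differed by -0.01 (95% interval -0.19 to 0.16) and -0.13 (-0.29 to 0.02) in polysomal RNA.

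All 6 G1/S regulators had lower values after 4EGI-1 in both fractions, except that cytoplasmic E2f1 (-0.02) was at 0.04 without cytoplasmic control array 3 and at 0.03 without cytoplasmic 4EGI-1 array 2. Not all passed: 4 fell in polysomal RNA (Ccne1, Ccne2, Cdk2, E2f3), against 12.1% of all genes tested, and 3 in cytoplasmic RNA (Ccne1, Cdk2, E2f2), against 7.79%. Ccne1 had 8.41, 8.44 and 8.39 in polysomal RNA of 4EGI-1 cells, against 8.91, 9.01 and 8.91 in control cells. In cytoplasmic RNA Ccne1 had 8.66, 8.57 and 8.72 in 4EGI-1 cells, against 9.10, 8.74 and 9.39 in control cells. The treatments were apart in both fractions, by a narrow gap in cytoplasmic RNA. Ccne1 fell by 0.53 ± 0.12 in polysomal RNA (limma adjusted p = 0.00434) and by 0.43 ± 0.12 in cytoplasmic RNA (adjusted p = 0.0232). The cytoplasmic call was lost without cytoplasmic control array 1 (0.067) or 3 (0.0916) or cytoplasmic 4EGI-1 array 1 (0.0639) or 2 (0.0823), and with the 6 cytoplasmic arrays alone (0.121).

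Cdk2, the kinase partner of cyclin E, fell by 0.30 ± 0.10 in polysomal RNA (limma adjusted p = 0.0465) and by 0.36 ± 0.10 in cytoplasmic RNA (adjusted p = 0.027). The polysomal call was lost without any 1 of 8 arrays, the 6 polysomal ones and cytoplasmic control array 1 and 4EGI-1 array 1 (0.0574 to 0.131), with centring (0.0964) and without a filter (0.0814). The cytoplasmic call was lost without cytoplasmic control array 1 or 3 or cytoplasmic 4EGI-1 array 1 or 2 (0.0751 to 0.123), and with the 6 cytoplasmic arrays alone (0.134). Polysomal cyclin E2, Ccne2, fell by 0.24 ± 0.07 (adjusted p = 0.0224), but not without polysomal control array 1 (0.104) or polysomal 4EGI-1 array 2 (0.0955) or 3 (0.0617).

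Among the E2F factors, which switch on S phase genes, E2f1 had 6.91, 6.96 and 7.05 in polysomal RNA of 4EGI-1 cells, against 7.09, 7.13 and 7.35 in control cells. Its cytoplasmic values were 7.47, 7.40 and 7.64 in 4EGI-1 cells and 7.51, 7.41 and 7.66 in control cells. The polysomal groups were just apart, and the cytoplasmic groups overlapped. E2f1 passed in neither fraction (-0.22 ± 0.10, limma adjusted p = 0.12 in polysomal RNA, and -0.02 ± 0.10, 0.911 in cytoplasmic RNA), although the polysomal value passed with the 6 polysomal arrays alone (0.0467). E2f2 fell by 0.41 ± 0.13 in cytoplasmic RNA (adjusted p = 0.0466), a call lost without any 1 of 10 arrays, all but cytoplasmic control array 2 and cytoplasmic 4EGI-1 array 3 (0.0594 to 0.191), with the 6 cytoplasmic arrays alone (0.169), with arrays centred on their medians (0.0727) and without a filter (0.0793). E2f2 in polysomal RNA (-0.29, adjusted p = 0.144) passed with the 6 polysomal arrays alone (0.00518) and without cytoplasmic control array 2 (0.0486) or 3 (0.0484). E2f3 fell by 0.29 ± 0.10 in polysomal RNA (adjusted p = 0.0455), a call lost without polysomal control array 1 or 3, any polysomal 4EGI-1 array, cytoplasmic control array 1 or cytoplasmic 4EGI-1 array 2 (0.0513 to 0.167). It was also lost with the mean of both probe sets (0.204), centring (0.0926) and no filter (0.0802), and its second probe set gave -0.13. For 0 of the 6 did the difference of effects between fractions pass (limma; 0 at an unadjusted p under 0.05).

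Polysomal RNA was also set against cytoplasmic RNA within each treatment. The arrays were scaled one by one and the reference RNA can hold nuclear RNA. The values are therefore relative and do not give the share of a transcript in polysomes. In 4EGI-1 cells 7 of the 48 genes were higher in polysomal RNA and 2 lower, against 9.56% and 7.15% of all genes tested (16.7% in either direction). In control cells 8 were higher and 14 lower, against 16.7% and 12.2% of all genes tested (29% in either direction). The median was -0.02 in 4EGI-1 cells and -0.09 in control cells for the 48 genes, and -0.01 and -0.02 for all genes tested. The polysomal control arrays enter this comparison, the polysomal effect of 4EGI-1 and the difference of effects, so these are different views of the same arrays and not separate evidence. In 4EGI-1 cells the count that was higher was 3 without polysomal 4EGI-1 array 1 and 4 without polysomal 4EGI-1 array 2 or 3 or cytoplasmic 4EGI-1 array 2.

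Polysomal minus cytoplasmic, Pole was at -0.44 ± 0.10 in 4EGI-1 cells (limma adjusted p = 0.00918) and at -1.56 ± 0.10 in control cells (adjusted p = 8.31e-08). The value of Pole in control cells was the lowest of the 48 genes there. With centring on array medians the call in 4EGI-1 cells was lost (-0.34, adjusted p = 0.0554). Rrm1 was at -0.03 ± 0.08 in 4EGI-1 cells and at -1.02 ± 0.08 in control cells, where it passed (adjusted p = 3.37e-07). Mcm7 was at -0.28 ± 0.10 and did not pass in 4EGI-1 cells (adjusted p = 0.0795; 0.0237 without cytoplasmic 4EGI-1 array 2 and 0.046 with quantile normalization of the 12 arrays), and at -1.02 ± 0.10 in control cells. Dnmt1, Uhrf1, Pola1, Lig1, Mcm4, Pold1, Mcm10, Mcm2 and Mcm3 were also lower in polysomal RNA of control cells, with values from -0.97 to -0.57, and did not pass in 4EGI-1 cells, where their values ran from -0.24 to 0.01. E2f1 was lower in both, at -0.53 ± 0.10 in 4EGI-1 cells (adjusted p = 0.00225) and -0.33 ± 0.10 in control cells (adjusted p = 0.0159), and Tk1 in control cells (-0.24, adjusted p = 0.0275). In control cells the E2f1 call was lost without polysomal control array 1 (0.0791) or 2 (0.0623) or cytoplasmic control array 3 (0.0599) and with centring on array medians (0.105). The Tk1 call was lost with the mean of both probe sets (-0.14, adjusted p = 0.297), with centring (0.214), without any polysomal control array or cytoplasmic control array 3 (0.0583 to 0.0825), with the 6 control arrays alone (0.0553) and without a filter (0.0552).

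Other genes were higher in polysomal than in cytoplasmic RNA with 1 or both treatments. They were 7 of the 48 in 4EGI-1 cells, against 9.56% of all genes tested, and 8 in control cells, about the 16.7% of all genes. How many of all genes passed with both treatments was not counted, so whether that pattern is unusual is not known. Gmnn was higher by 0.64 ± 0.08 in 4EGI-1 cells and 0.83 ± 0.08 in control cells, Rpa3 by 0.47 ± 0.11 and 0.86 ± 0.11, the clamp loader subunit Rfc3 by 0.39 ± 0.09 and 0.53 ± 0.09, and the polymerase epsilon subunit Pole2 by 0.37 ± 0.08 and 0.44 ± 0.08. These 4 passed with both treatments, with limma adjusted p up to 0.00994, but the Pole2 call in 4EGI-1 cells was lost without polysomal 4EGI-1 array 1 (0.0508). Cdc45 (0.28 in 4EGI-1 cells, 0.49 in control cells) and Mcm5 (0.26 and 0.27) passed with both as well. In 4EGI-1 cells each lost its call without any polysomal 4EGI-1 array, Cdc45 also without cytoplasmic 4EGI-1 array 2 or 3 (adjusted p from 0.0773 to 0.106), and Mcm5 without cytoplasmic 4EGI-1 array 1 or 2 (0.0552 to 0.0964). Quantile normalization of the 12 arrays (0.0833) and no filter (0.0657) ended the Cdc45 call there, and the 6 arrays of 4EGI-1 cells alone (0.0566) and no filter (0.0528) the Mcm5 call. Orc2 (0.48, adjusted p = 0.000216) and Rpa2 (0.34, adjusted p = 0.0155) passed in control cells, at 0.07 and 0.16 in 4EGI-1 cells, and the Rpa2 call was lost without polysomal control array 1 (0.0783) or cytoplasmic control array 2 (0.0574). Fen1 passed in 4EGI-1 cells (0.36, adjusted p = 0.0177), at 0.11 in control cells, and not without cytoplasmic 4EGI-1 array 2 or any polysomal 4EGI-1 array (0.0513 to 0.0629).

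**Figure D3:**
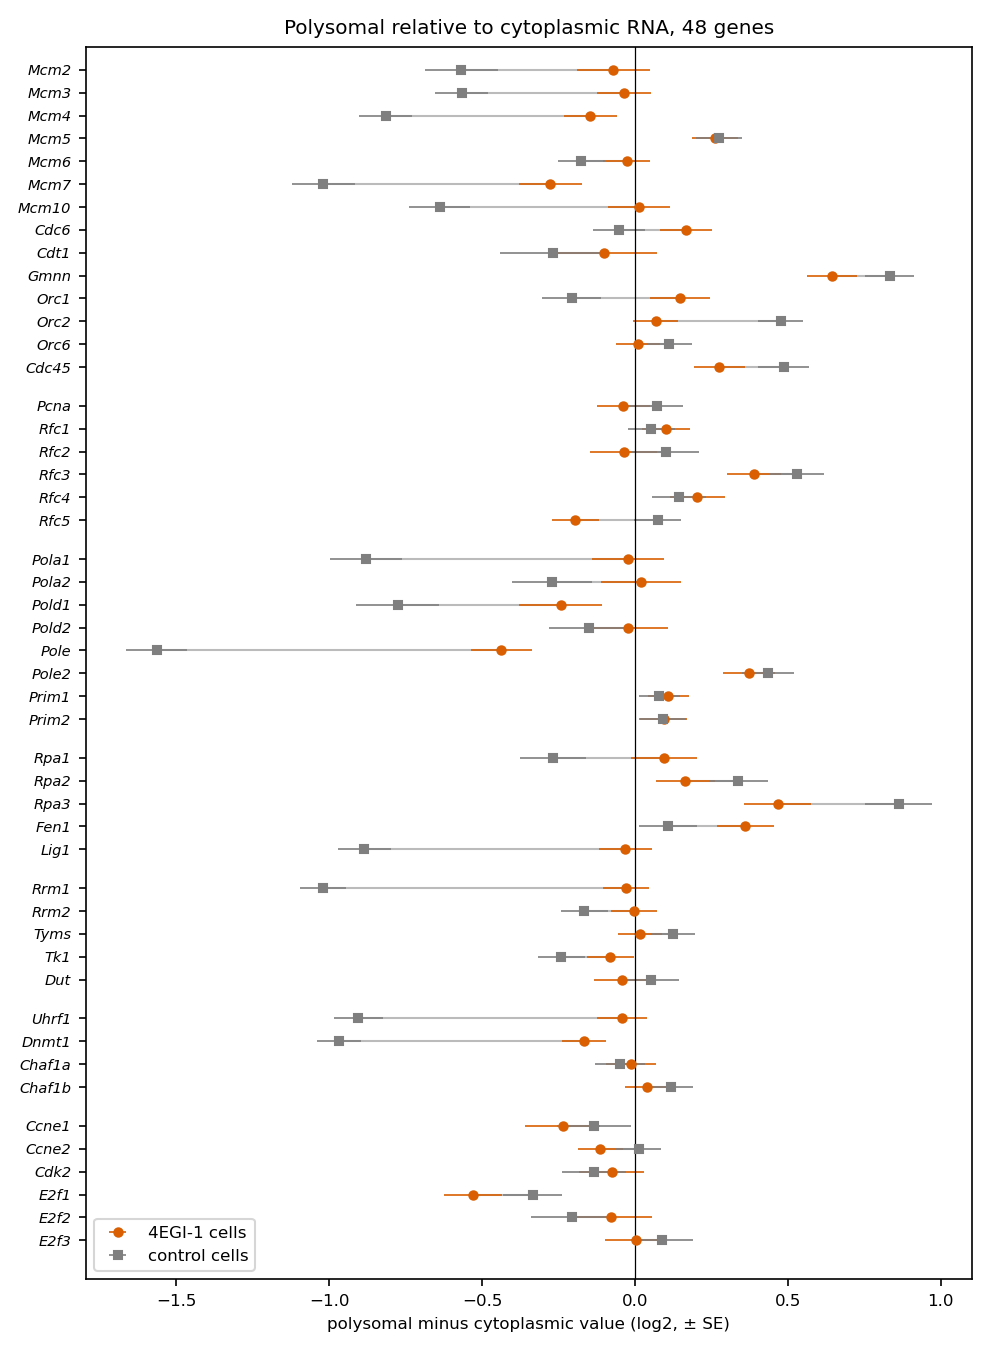
Polysomal minus cytoplasmic value (log2, x axis, ± SE) of the 48 genes in 4EGI-1 cells (orange circles) and control cells (grey squares), joined by a line for each gene. The grey squares of Pole (-1.56), Rrm1 and Mcm7 (both -1.02) lie far left of 0, while the orange circles of most genes lie near 0; Gmnn and Rpa3 lie right of 0 in both.

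Laid out over the 12 arrays, 13 of the 48 genes (27.1%) had all 3 polysomal control arrays below the other 9 arrays, against 6.62% of all genes tested. They were Mcm2, Mcm3, Mcm4, Mcm6, Mcm7, Mcm10, Pola1, Pold1, Pole, Lig1, Rrm1, Uhrf1 and Dnmt1, that is, 12 of the genes that rose in polysomal RNA, and Mcm6. The 3 polysomal control arrays lay above the other 9 for 5 genes (10.4%: Gmnn, Pole2, Rpa2, Rpa3, Chaf1b), against 9.18% of all genes tested. This layout was described after the values had been seen. Groups of 3 that did not overlap between treatments were found for 39 of the 48 genes in polysomal RNA, 19 higher and 20 lower, against 48.7% of all genes tested, and for 17 in cytoplasmic RNA, 5 higher and 12 lower, against 26.5%.

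A wider list of 72 genes of the same pathway, of which 67 were measured and bright enough to be tested, was read in the same way. In polysomal RNA 17 of the 67 rose and 20 fell, against 13% and 12.1% of all genes tested. In cytoplasmic RNA 10 rose and 8 fell, against 10.1% and 7.79%. For 5 the polysomal effect exceeded the cytoplasmic effect, against 2.31%, and for 0 it fell short, against 0.607% (limma; 7 at an unadjusted p under 0.05). The medians were -0.02, -0.04 and -0.06. The 5 were Ddb1, part of the ubiquitin ligase that removes Cdt1 in S phase (1.00 ± 0.13, limma adjusted p = 0.000451), the checkpoint mediator Clspn (0.70 ± 0.11, adjusted p = 0.00192), the mismatch repair subunit Msh6 (0.67 ± 0.13, adjusted p = 0.00811), the origin firing factor Ticrr (0.61 ± 0.12, adjusted p = 0.0128) and topoisomerase Top1 (0.53 ± 0.11, adjusted p = 0.0131).

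By the smallest p in each direction, Clspn (0.90 ± 0.08), Ddb1 (0.99 ± 0.09) and Ticrr (0.86 ± 0.09) led the rises in polysomal RNA, with limma adjusted p up to 5.1e-06. Rnaseh2c, a subunit of the ribonuclease that removes RNA from DNA (-0.96 ± 0.08, adjusted p = 1.63e-06), the Pcna-binding protein Pclaf (-0.44 ± 0.07, adjusted p = 0.000334) and the ubiquitin ligase subunit Skp2 (-0.44 ± 0.09, adjusted p = 0.00143) led the falls. In cytoplasmic RNA the alternative reductase subunit Rrm2b (0.62 ± 0.08, adjusted p = 0.000112), Orc4 (0.62 ± 0.11, adjusted p = 0.000822) and the Ddb1 partner Dtl (0.44 ± 0.08, adjusted p = 0.00185) rose. Rnaseh2c (-0.62 ± 0.08, adjusted p = 0.00014), the Cdk2-activating phosphatase Cdc25a (-0.49 ± 0.10, adjusted p = 0.00342) and Skp2 (-0.36 ± 0.09, adjusted p = 0.00985) fell there, Skp2 not without cytoplasmic 4EGI-1 array 2 (0.0507) or with the 6 cytoplasmic arrays alone (0.0741).

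Set against cytoplasmic RNA, 11 of the 67 were higher in polysomal RNA and 5 lower in 4EGI-1 cells, against 9.56% and 7.15% of all genes tested. In control cells 20 were higher and 14 lower, against 16.7% and 12.2%. The median was 0.03 in each. The clamp loader partner Dscc1 was higher by 0.78 in 4EGI-1 cells and 0.87 in control cells, and Orc4 by 0.42 and 0.59. Mcmbp, which binds MCM proteins, was higher by 0.32 in 4EGI-1 cells and the polymerase delta subunit Pold4 by 0.52 in control cells. Ddb1 was lower with both treatments, at -0.40 in 4EGI-1 cells and -1.40 in control cells, the first not with centring on array medians (-0.30, adjusted p = 0.0511). Gins2, a helicase partner (-0.34), and the polymerase epsilon subunit Pole4 (-0.40) were lower in 4EGI-1 cells, and Clspn (-0.73) and Msh6 (-0.63) in control cells. In 4EGI-1 cells the Orc4 call was lost without polysomal 4EGI-1 array 1 (limma adjusted p = 0.0671), the Gins2 call without polysomal 4EGI-1 array 3 (0.0516), and the Pole4 call without polysomal 4EGI-1 array 1 (0.0721) or 3 (0.0518) or cytoplasmic 4EGI-1 array 3 (0.0561). Centring also ended the calls on Gins2 (0.101) and Pole4 (0.0884) there.

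**Figure D4:**
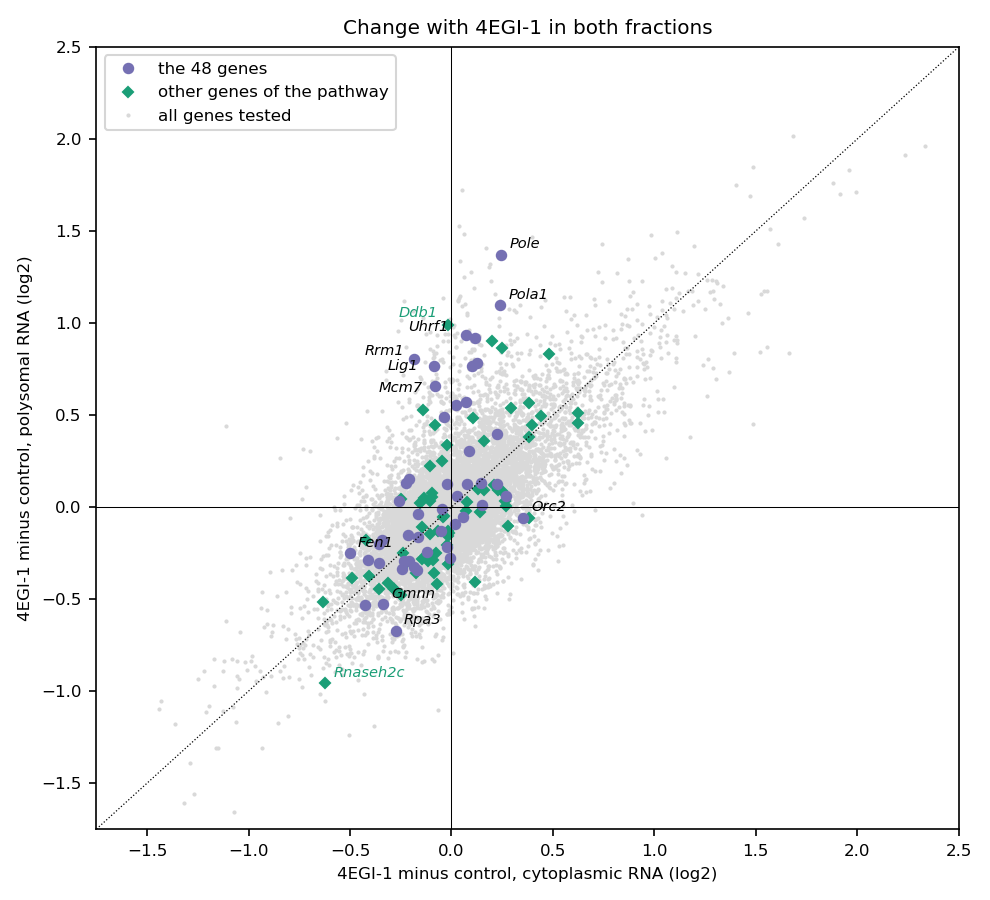
Change with 4EGI-1 (4EGI-1 minus control, log2) in polysomal RNA (y axis) against cytoplasmic RNA (x axis) for the 48 genes (purple circles), 67 other genes of the pathway (green diamonds) and all genes tested (grey points); the dotted line marks equal change. Pole, Pola1, Uhrf1, Rrm1, Lig1, Mcm7 and Ddb1 lie above the line near 0 on the x axis, Orc2 lies below it, and Rnaseh2c and Gmnn are lower in both fractions.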

How the data were processed

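RNA was amplified and biotin-labelled with NuGEN kits, per the labels' protocols, and hybridised to 12 single-colour whole-transcript arrays. Per the submitters' processing notes, the authors made the deposited log2 signals with RMA, of which no version was stated. The table held 34760 probe sets, of which 21640 had 1 gene symbol, 1321 several and 11799 none in the platform annotation, and only the first kind was used. Genes with a mean over the 12 arrays at or above the 40th percentile of all probe sets (log2 6.00) were tested with limma 3.58.1 in R 4.3.3 (group means, eBayes without trend), with Benjamini-Hochberg adjustment over 13180 genes, in 5 comparisons. The fit was run on simulated data with independent arrays and equal spread in all groups. The measured spread differed between fractions, so that run does not check the p-values given here. Probe signals give no read depth, and the number of arrays, 3 a group, limits precision. Levels were not compared between genes. Intervals are 95% intervals of the fit.

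Values on every array are given for the 12 genes with the smallest p over the 3 treatment comparisons and for Pcna, Mcm2, Cdt1, Ccne1 and E2f1; Orc2 and Fen1 were added after their values were seen. Of the wider list, at most 3 genes in each direction of a comparison are named, by smallest p, except that Ticrr and Top1 were added to the difference of effects after their values were seen. The genes, lists and tests were chosen with earlier results of these data known. Promoters came from RefSeq (GRCm38.p6); Ccne2, Gmnn, Mcm4, Pole, Prim2 and Rfc2 had no entry in the table used. The alternatives were other normalizations, filters and variance priors, the 6 arrays of a comparison alone, all probe sets of a gene, a replicate block and each array left out.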

Additional observations from a re-analysis of the deposited data

Results flagged for a closer look

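For 11 of the 48 genes the effect of 4EGI-1 differed between polysomal and cytoplasmic RNA by the test of the difference itself (limma, adjusted over 13180 genes). The polysomal effect minus the cytoplasmic effect, on the log2 scale, was 1.13 for Pole (adjusted p = 0.000417), 0.99 for Rrm1 (0.000145), 0.86 for Uhrf1 (0.000612), 0.86 for Pola1 (0.0102), 0.85 for Lig1 (0.00113), 0.80 for Dnmt1 (0.000451), 0.74 for Mcm7 (0.0102) and 0.67 for Mcm4 (0.00686). It was 0.65 for Mcm10 (0.0209) and 0.53 for Mcm3 (0.0306). It was -0.41 for Orc2 (0.0467). The call on Mcm10 was lost without any 1 of 6 arrays, that on Mcm3 without any 1 of 9 and that on Orc2 without any 1 of 10. Centring and the lack of a filter also ended the calls on Mcm3 and Orc2. With 3 arrays a group, single arrays were not examined as outliers.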

How the results depend on the processing

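Under 9 other settings and with each of the 12 arrays left out, no call changed direction, and 48 of the 76 calls on the 48 genes passed throughout: 15 of 24 in polysomal RNA, 2 of 10 in cytoplasmic RNA (Orc2, Fen1), 8 of 11 for the difference of effects, 4 of 9 for polysomal against cytoplasmic RNA in 4EGI-1 cells and 19 of 22 in control cells. The difference of effects needs all 4 groups, so it was not run with 6 arrays alone. In cytoplasmic RNA the genes that rose numbered 1 with the 6 cytoplasmic arrays alone, 1 with arrays centred on their medians and 1 without a filter, against 3, and those that fell numbered 1 with the 6 arrays alone, against 7. The Orc2 call on the difference was lost with centring and without a filter, which left 0. In 4EGI-1 cells 4 genes were lower in polysomal RNA with quantile normalization of the 12 arrays and 1 with centring, against 2. Leaving out single arrays gave 12 to 14 rises and 5 to 13 falls in polysomal RNA, 1 to 4 and 4 to 10 in cytoplasmic RNA, 8 to 12 and 0 to 1 for the difference, 3 to 7 higher and 2 to 3 lower in 4EGI-1 cells, and 7 to 8 and 12 to 18 in control cells. The causes were not tested. No scaling moved the median of all genes by over 0.1. For polysomal against cytoplasmic RNA centring moved it from -0.01 to 0.09 in 4EGI-1 cells and from -0.02 to 0.06 in control cells. The replicate block left 236 of 240 values on the same side of the threshold, ended 0 calls and added 4: cytoplasmic Pole2 (-0.23, limma adjusted p = 0.0424), polysomal E2f1 (0.04), and polysomal against cytoplasmic Mcm7 in 4EGI-1 cells (0.0391) and Rpa1 in control cells (0.0148). By block, 13 genes rose and 12 fell in polysomal RNA. Deviations of same-numbered arrays correlated at -0.22 to 0.08 for number 1, 0.14 to 0.56 for number 2 and -0.06 to 0.52 for number 3, and 7 of 12 arrays correlated best with their own number, so numbers were not treated as pairs; the design text has the reference RNA from the same samples but ties no numbers together. Over all genes, falls in cytoplasmic RNA numbered 369 with 6 arrays alone, against 1027, and rises 731, against 1325. Polysomal falls numbered 2685 with 6 arrays alone, against 1599. Differences below 0 numbered 45 with centring and 28 without a filter, against 80. With centring 2205 genes were higher and 427 lower in polysomal RNA of 4EGI-1 cells, against 1260 and 942, and 933 were lower in control cells, against 1614. The description of changes by protein length was not run, because no table of protein lengths was used here.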
